A study of Drosophila melanogaster with 27 samples.

Results

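The genes described here build the machinery that carries newly made proteins into and out of the endoplasmic reticulum: the coats of the COPI and COPII vesicles, the Sec61 translocon, the signal recognition particle, signal peptidase and a few enzymes, chaperones and tethers of the same route. They were picked by gene symbol alone, as symbols that end in COP, that begin with Sec or Srp followed by digits or with Spase, or that belong to a short list of named genes, and where several probe sets measured a gene the brightest one stood for it. The rule found 38 genes, measured by 40 probe sets, among the 10844 genes that the array's 13966 probe sets name singly. A further 10 genes that the rule names (Arf1, Calr, Ost48, Sar1, Sec23, Sec6, Srp54, SrpRbeta, beta'COP and zetaCOP) had no probe set of their own under these annotations and were not analysed here. Of the 38 genes, 37 were bright enough to be tested, and Sec3, an exocyst subunit, stayed under the detection floor in all 27 arrays.

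Proteins bound for secretion are recognised by the signal recognition particle while still on the ribosome, handed to its receptor, threaded through the Sec61 channel, clipped by signal peptidase and decorated with sugars by oligosaccharyltransferase. Folded cargo leaves in COPII vesicles, and COPI vesicles return escaped residents and machinery from the Golgi. In Drosophila this route serves tissues that secrete in bulk at the onset of metamorphosis, among them the salivary glands, which make the glue that fixes the puparium, the fat body, and the epidermis, which lays down a new cuticle.

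The animals were w1118, a white-eyed stock used as wild type, and no group carried a further allele or received a treatment. Whole animals were taken as larvae of the third instar at -18 and -4 h, at pupariation (0 h), and as prepupae and early pupae at 2, 4, 6, 8, 10 and 12 h, with 3 independent samples at each of the 9 stages. Each sample was total RNA from 10 pooled animals, hybridised to 1 Affymetrix Drosophila Genome Array, so that a change can come from any tissue. A smaller number of cells of a type and less RNA per cell cannot be told apart in such samples.

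All values are linear intensities as deposited, and they compare stages within a gene, not genes with each other. A gene was called changed when limma's adjusted p, taken over all 12854 tested probe sets, was under 0.1 and the stage means differed by at least 1.5-fold, and adjusted p values below are limma's. The p values and standard errors rest on the spread between the 3 samples of a stage, pooled for each probe set over all stages. They do not use the spread of the compared stages alone. That spread differed between stages, with a median SD over the tested genes of 0.365 at -18 h and 0.0812 at 4 h on the log2 scale. Comparisons with -18 h were thus tested against a spread pooled with that of less variable stages. The median intensity lay between 249.4 and 277.3 in every array, and the replicates differed most at -18 h, where the lowest correlation between arrays was 0.845, against 0.991 at 8 h. The array of -18 h replicate 2 was the lowest of its stage for 32 of the 37 tested genes, while the median of all probe sets in it was near its average, at -0.02 on the log2 scale. That array is called the low larval array below, and comparisons with -18 h are given with and without it.

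By stage means, the secretory machinery genes rose from the larva to a common maximum at 4 h after pupariation. They had fallen back by 10 h. Neighbouring stages around that maximum were mostly not separated by test. No gene was called from 0 to 2 h or from 2 to 4 h (2.64 and 2.75% of all probe sets). From 4 to 6 h OstDelta alone fell, against 1.46% of all probe sets lower. From 2 to 4 h 35 of 37 genes were higher, and from 4 to 6 h 1 was. The genes share arrays, and 2 h replicate 2 was the lowest of its stage for 31 genes and 6 h replicate 2 for 33. Such counts of direction, here and below, come without a share of all probe sets and are not read as a result. An F-test over the 9 stages called 31 of the 37 genes, against 49.5% of all probe sets. Of these 31 genes, 27 reached their highest mean at 4 h, a stage at which 11.8% of all called probe sets peaked. Sec24AB and Sec10 peaked at 0 h (16% of all called probe sets), SrpRalpha at 6 h (5.38%) and Sec20 at 10 h (8.24%). The lowest mean fell at -18 h in 13 of the called genes (41.5% of all called probe sets), at 12 h in 11 (8.76%), at 10 h in 6 (6.21%) and in 1, Sec20, at 6 h (6.32%). Without the low larval array 30 genes were called, against 6033 of the 12854 probe sets. Of these genes 27 were highest at 4 h, for which no share of all probe sets is given in this fit. The lowest mean then fell at -18 h in 6 (38.5% of all called probe sets), at 10 h in 9 (7.43%) and at 12 h in 14 (10.4%). Relative to -18 h, the median gene stood 0.36 higher on the log2 scale at -4 h, 0.62 higher at 0 h, 0.71 at 2 h and 0.91 at 4 h. It then dropped to 0.60 at 6 h and 0.42 at 8 h, and by 10 and 12 h it stood at 0.03 and 0.01, while the median of all probe sets stayed within 0.04 of 0 at every stage. With the low larval array left out the same medians were 0.15 at -4 h and 0.43 at 0 h, with 0.66 for 4 h and -0.18 for 10 h.

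**Figure D1:**
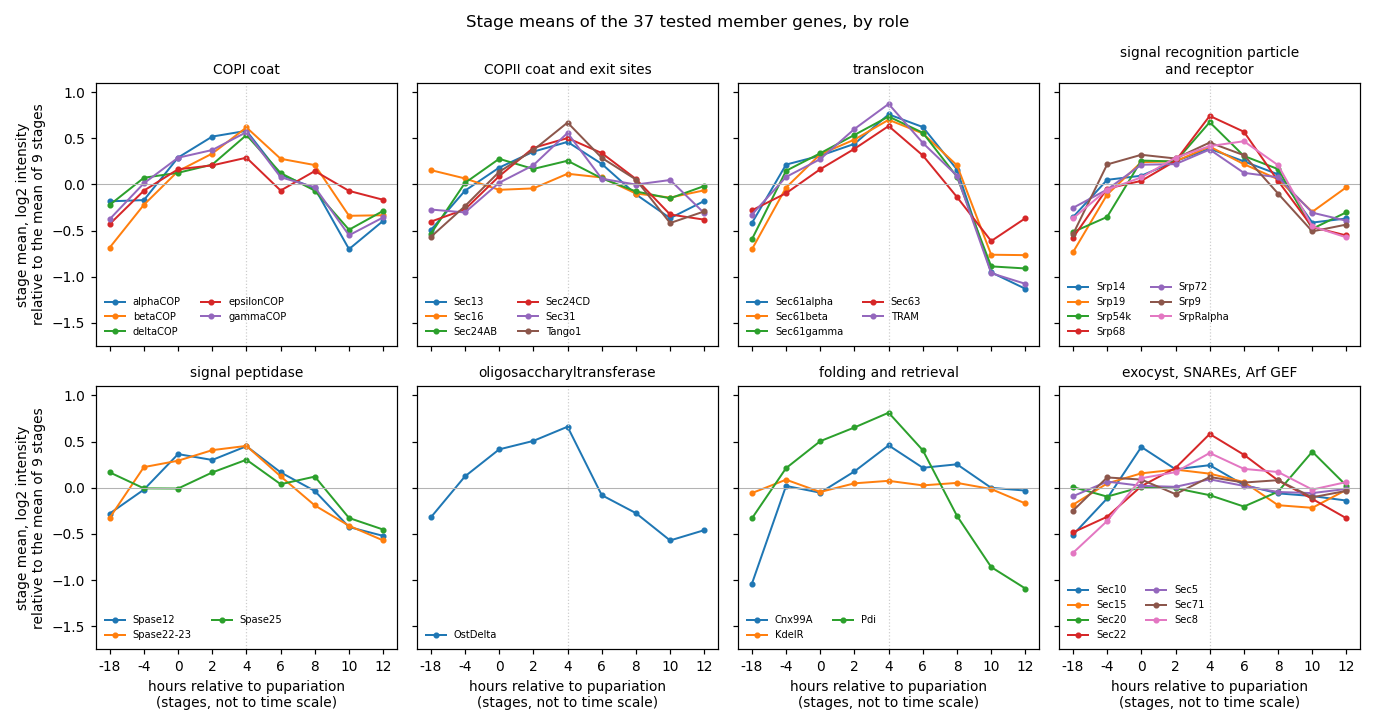
Stage means of the 37 tested genes by role, as log2 intensity relative to the mean of each gene's 9 stages, against hours relative to pupariation. Each line is 1 gene and each point the mean of 3 arrays. Most lines crest at 4 h (dotted), 27 of the 31 called genes among them. TRAM, Pdi, Sec61alpha, Sec61beta and Sec61gamma then drop farthest.

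Array by array the same shape appeared. The median gene stood between 0.43 and 0.50 above its own 27-array mean in the 3 arrays at 4 h, and between 0.34 and 0.36 below it in the 3 arrays at 10 h. At -18 h the arrays spread from -0.88 in replicate 2 to -0.11 in replicate 1, with replicate 3 at -0.28. At 6 h replicate 2 stood at -0.05, against 0.39 and 0.27 in the other arrays of that stage, and was the lowest of the 3 for 33 of the 37 genes. A low array tended to be low for many genes together. In this way -4 h replicate 1 was the lowest of its stage for 30 genes, and 2 h replicate 2 and 12 h replicate 3 for 31 each. The 4 h arrays lay closest together, with a median SD across genes of 0.0812 on the log2 scale, against 0.365 at -18 h and 0.218 at 6 h.

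**Figure D2:**
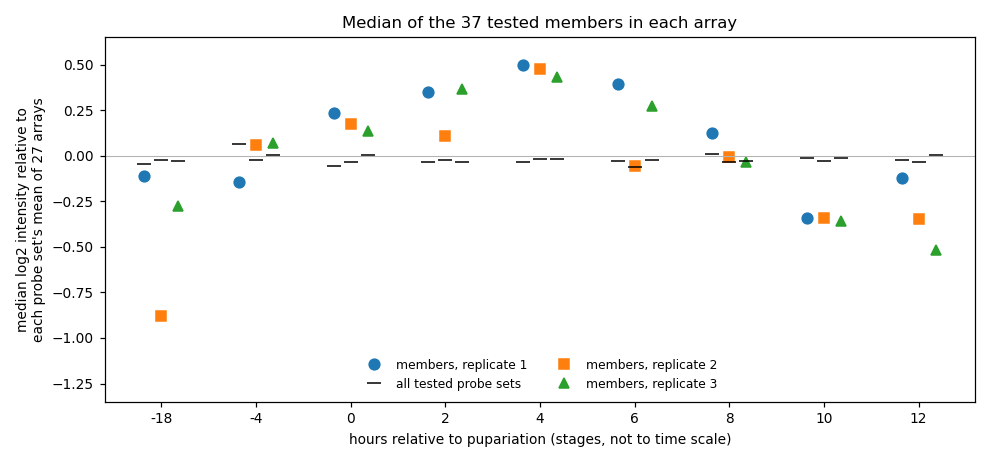
Median log2 intensity of the 37 tested genes in each of the 27 arrays, relative to each gene's mean over all arrays (coloured symbols, by replicate number), with the same median over all 12854 tested probe sets (black dashes). The 3 arrays at 4 h lie at 0.43 to 0.50 and those at 10 h at -0.36 to -0.34, while -18 h replicate 2 lies at -0.88 and the dashes stay near 0.

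The translocon genes rose and fell steeply. The 5 measured were Sec61alpha, the channel itself, its small partners Sec61beta and Sec61gamma, Sec63, which recruits the lumenal Hsp70 to the channel, and TRAM, a membrane protein beside the channel that aids translocation. All 5 were called over the stages, with ranges from 2.37-fold for Sec63 to 3.86-fold for TRAM. TRAM read 803, 607 and 708 in the 3 arrays at -18 h, 823, 961 and 1020.5 at -4 h, 1168, 1059.9 and 974 at 0 h, 1566, 1149.6 and 1322 at 2 h and 1765, 1673 and 1417 at 4 h. Its later values were 1331, 1011 and 1292 at 6 h, 967, 997 and 859.6 at 8 h, 496, 448 and 416 at 10 h and 468, 409 and 379 at 12 h. The arrays at 4 h all lay above those at -18 h, and the arrays at 10 and 12 h lay below every earlier one. TRAM was 2.30-fold higher at 4 h than at -18 h (2.14-fold without the low larval array, log2 with it 1.20 ± 0.14 SE, n = 3 a stage, adjusted p = 3.58e-07) and 3.56-fold lower at 10 h than at 4 h (adjusted p = 6e-10).

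Sec61alpha followed the same course at its own level. Its arrays read 3693, 1494 and 3359 at -18 h, 3694, 4437 and 4228 at -4 h, 4397, 4458 and 4321 at 0 h, 4757, 4638 and 5008 at 2 h and 6123, 5799 and 6051 at 4 h. They then read 6049.8, 4717 and 5659 at 6 h, 4211, 4007 and 3672 at 8 h, 2043, 1831 and 1634 at 10 h and 1911, 1698 and 1300.0 at 12 h. Replicate 2 at -18 h stood far under the other arrays of that stage, and leaving it out took the rise to 4 h from 2.26-fold to 1.70-fold (adjusted p = 8.94e-05). From 8 to 10 h Sec61alpha fell 2.16-fold (adjusted p = 0.00111), with no overlap between the arrays.

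Sec63, with the smallest range of the translocon genes, read 509, 446 and 464 at -18 h, 497, 550.5 and 567 at -4 h, 668, 639 and 624 at 0 h, 780.4, 639 and 845 at 2 h and 951, 852 and 869 at 4 h, and then 893, 595 and 683 at 6 h, 597, 501 and 475 at 8 h, 396, 384 and 347 at 10 h and 532, 425 and 390.5 at 12 h. All 3 arrays at 4 h lay above all 3 at -18 h and at 10 h. Sec61beta and Sec61gamma had ranges of 2.76 and 3.13-fold. At 10 h the median translocon gene stood 0.33 below its -18 h level on the log2 scale, where the median of all 37 genes stood 0.03 above it, and without the low larval array these values were -0.69 and -0.18.

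Next came the signal recognition particle and its receptor, whose 7 genes were all called over the stages. Srp54k encodes the GTPase that binds the signal sequence, Srp19 helps assemble it onto the particle's RNA, Srp9 and Srp14 form the part that slows translation, Srp68 and Srp72 pair in the same particle, and SrpRalpha is the receptor subunit that takes up the ribosome. Srp68 read 658, 308 and 496 at -18 h, 485, 856 and 735 at -4 h, 717, 762 and 666 at 0 h, 809, 733 and 958 at 2 h and 1194, 1134 and 1159 at 4 h. Later it read 1207, 740.0 and 1229.7 at 6 h, 794, 742 and 615 at 8 h, 542, 475 and 497 at 10 h and 557, 509 and 374 at 12 h. The arrays at 4 h lay above every array at -18, -4, 0, 2, 8, 10 and 12 h, and 2 of the 3 arrays at 6 h lay above them. The rise from -18 to 4 h was 2.50-fold (2.04-fold without the low larval array, log2 with it 1.32 ± 0.24 SE, adjusted p = 8.58e-05) and the fall from 4 to 10 h 2.31-fold (adjusted p = 0.000545).

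Srp54k was dim, with 5 of its 27 arrays under the floor of 60.26, so that its changes are understated. It read 69.0, 42.2 and 51.6 at -18 h, 46.5, 74.0 and 79.0 at -4 h, 141, 96.4 and 92.5 at 0 h, 126, 75.0 and 130.1 at 2 h and 176, 123 and 137 at 4 h, and then 157, 75.3 and 118 at 6 h, 125, 88.5 and 93.6 at 8 h, 58.8, 67.1 and 66.7 at 10 h and 96.1, 67.7 and 48.3 at 12 h. Its 3 arrays at 4 h lay above all those at -18 and 10 h. Srp72 had the smallest range of the particle's genes, 1.71-fold, and read 370.5, 329 and 298 at -18 h, 357, 391 and 393 at -4 h, 508, 442 and 428 at 0 h, 504, 396 and 488 at 2 h and 558, 523 and 464 at 4 h, then 503, 352 and 452 at 6 h, 395, 433 and 422 at 8 h, 312, 329 and 317 at 10 h and 340.4, 296 and 269.9 at 12 h. Again the arrays at 4 h stood clear of both ends of the course. Srp14 and Srp72 lie near each other in the genome, with 4 genes between them.

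SrpRalpha differed from the other genes of this set in peaking at 6 h, and its result rests on the choice of probe set. The brighter probe set rose 1.72-fold from -18 to 4 h (adjusted p = 6.46e-05, 1.49-fold and no call without the low larval array) and fell 1.83-fold from 4 to 10 h. A dimmer probe set of the same gene went from 318 ± 15.9 (SD, n = 3) at -18 h to 184 ± 6.22 at 4 h, a fall of 1.73-fold (adjusted p = 0.00174), and its change from 4 to 10 h was 0.32 on the log2 scale (adjusted p = 0.276). The 2 probe sets of SrpRalpha thus went opposite ways from -18 to 4 h, and its direction is not settled by these data.

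Signal peptidase, which cuts the signal sequence from the entering chain, was represented by Spase12, Spase22-23 and Spase25, all called over the stages. Spase22-23 read 1676, 1026 and 1377 at -18 h, 1746, 1962 and 2167 at -4 h, 1902, 2137 and 2111 at 0 h, 2249, 2197 and 2202 at 2 h and 2228, 2455 and 2189.9 at 4 h, and 1819, 1779 and 1864 at 6 h, 1511, 1484 and 1395 at 8 h, 1289.9, 1342 and 1144 at 10 h and 1219, 1127 and 1034 at 12 h. Spase12 read 1103, 673 and 952 at -18 h, 930.2, 1094 and 1189.8 at -4 h, 1443, 1389.9 and 1344 at 0 h, 1379, 1149 and 1489.7 at 2 h and 1552, 1509 and 1374 at 4 h, and 1278, 1105 and 1265 at 6 h, 1130.1, 1055 and 984 at 8 h, 865, 818 and 736 at 10 h and 831, 730.4 and 704 at 12 h. Both were higher at 4 h than at -18 h in every array, by 1.72-fold (adjusted p = 2.71e-05) and 1.66-fold (adjusted p = 0.000202). With the low larval array left out Spase22-23 was 1.51-fold higher and still called, while Spase12, at 1.44-fold, was no longer called.

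Spase25, unlike the other subunits, was not called between -18 and 4 h. It read 1587, 1276 and 1632 at -18 h, 1239.8, 1282 and 1450.0 at -4 h, 1321, 1294 and 1344 at 0 h, 1575, 1373 and 1527 at 2 h and 1573, 1746 and 1599.9 at 4 h, then 1327, 1267 and 1506 at 6 h, 1448, 1394 and 1488 at 8 h, 1075, 1046 and 1052 at 10 h and 1023, 956 and 932 at 12 h. Its arrays at -18 and 4 h overlapped (log2 0.14 ± 0.10 SE, adjusted p = 0.228), whereas from 4 to 10 h it fell 1.55-fold (adjusted p = 2.65e-05). Whether the 3 subunits differed in their rise was not tested.

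OstDelta, the one oligosaccharyltransferase subunit measured, was low again soon after its maximum. It read 1215, 891 and 1070.5 at -18 h, 1382, 1437 and 1472 at -4 h, 1788, 1864 and 1612 at 0 h, 1907, 1599 and 2134 at 2 h and 2265, 2025 and 1953 at 4 h. By 6 h it read 1508, 997 and 1274, followed by 1259, 1033 and 983 at 8 h, 949.5, 913 and 797 at 10 h and 1215, 907 and 791 at 12 h. Every array from 6 h onward lay below every array at 4 h. The gene rose 1.98-fold from -18 to 4 h (1.82-fold without the low larval array, adjusted p = 3.26e-05) and fell 2.35-fold from 4 to 10 h (adjusted p = 3.59e-06).

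The 3 folding and retrieval genes took different courses, a difference that was not tested. Pdi, protein disulfide isomerase, which forms disulfide bonds in the lumen, ranged 3.75-fold over the stages. It read 4976, 2344 and 4836 at -18 h, 5701, 5772 and 5328 at -4 h, 7295, 6776 and 6515 at 0 h, 7735, 7261 and 7809.6 at 2 h and 8498, 8511 and 8461 at 4 h, and then 6617, 5986 and 6624 at 6 h, 3809, 3792 and 4140.4 at 8 h, 2875, 2531 and 2594 at 10 h and 2630.1, 2304 and 1921 at 12 h. From 4 h on, the arrays of each stage of Pdi lay below all arrays of the stage before, up to 10 h, and the 12 h arrays overlapped those at 10 h. The fall from 4 to 10 h was 3.19-fold (log2 -1.67 ± 0.18 SE, adjusted p = 1.93e-07), and part of it, 1.64-fold, came between 6 and 8 h (adjusted p = 0.0128).

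Cnx99A, a calnexin that holds glycoproteins while they fold, rose as well and stayed above its -18 h level. It read 1334, 893 and 1069.7 at -18 h, 2179.9, 2474 and 2149 at -4 h, 2299, 2131 and 2032 at 0 h, 2600.2, 2405 and 2569.7 at 2 h and 3079, 2889 and 3251 at 4 h, and 3219, 1794 and 3021 at 6 h, 2786, 2544 and 2662 at 8 h, 2369, 2231 and 2101 at 10 h and 2504, 2216 and 1881 at 12 h. Every later array lay above all 3 arrays at -18 h. At 12 h its mean was still 1.01 above -18 h on the log2 scale, where Pdi stood at -0.76 (0.87 and -1.11 without the low larval array). Its 2.09-fold rise from -18 to -4 h (adjusted p = 4.98e-05) remained a call without -18 h replicate 2, at 1.89-fold (adjusted p = 0.000406).

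KdelR, the receptor that returns lumenal residents from the Golgi, read 2686, 1435 and 2653 at -18 h, 2246, 2501 and 2461 at -4 h, 2054, 2206 and 2314 at 0 h, 2338, 2439 and 2234 at 2 h and 2343, 2477 and 2324 at 4 h, and 2329.6, 2389 and 2186 at 6 h, 2475, 2223 and 2338 at 8 h, 2372, 2150.4 and 2195 at 10 h and 1994, 2211 and 1836 at 12 h. The low larval array lay below every other one, both of its fellows at -18 h lay above all 3 arrays at -4 h, and the range of stage means, 1.20-fold, did not pass the test (adjusted p = 0.806).

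**Figure D3:**
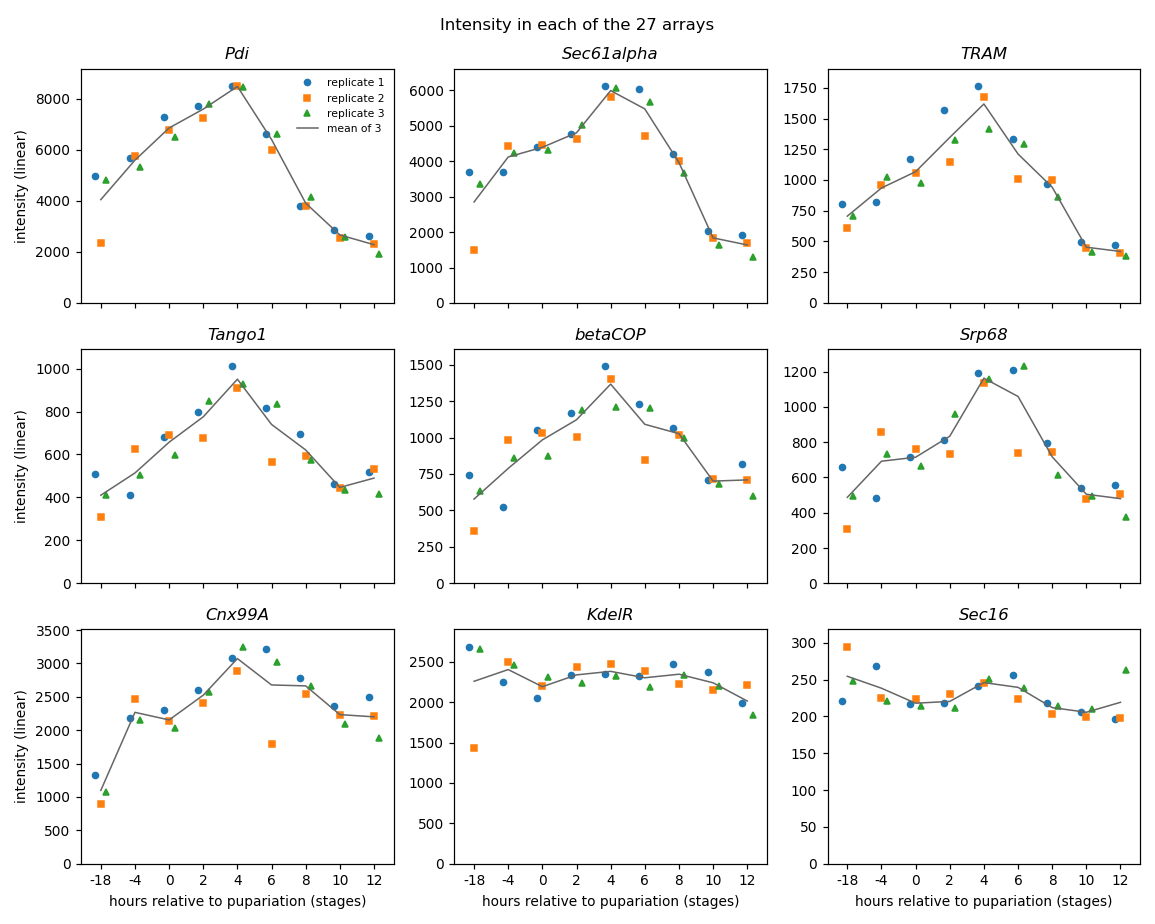
Linear intensity in each of the 27 arrays (symbols by replicate number) and the mean of 3 (line) for 9 genes, against hours relative to pupariation. Pdi, Sec61alpha, TRAM, Tango1, betaCOP and Srp68 peak at 4 h, Cnx99A stays high to 12 h, and KdelR and Sec16, with ranges of 1.20 and 1.23-fold, do not pass the test over the stages.

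Of the 6 genes of the COPII coat and its exit sites, 5 were called over the stages. Sec13 and Sec31 form the outer cage, Sec24AB and Sec24CD select cargo in the inner layer, Sec16 organises exit sites, and Tango1 sits at exit sites and helps load bulky cargo such as collagen. Tango1 read 508, 309 and 414 at -18 h, 413, 624 and 505 at -4 h, 681, 693 and 597 at 0 h, 796, 679 and 851 at 2 h and 1010.4, 911 and 930.4 at 4 h, and 818, 565 and 837 at 6 h, 695, 593 and 575 at 8 h, 463, 445 and 432 at 10 h and 518, 535 and 417 at 12 h. Its arrays at 4 h lay above those of every other stage. The rise from -18 h was 2.36-fold (2.07-fold without the low larval array, log2 with it 1.24 ± 0.17 SE, adjusted p = 4.5e-06) and the fall to 10 h 2.13-fold (adjusted p = 4.88e-05).

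Sec13 read 760.3, 395 and 692 at -18 h, 612, 909.7 and 907 at -4 h, 982, 941 and 919.6 at 0 h, 1095, 1006 and 1105 at 2 h and 1138, 1201 and 1110.3 at 4 h, and 1026, 840.1 and 1072 at 6 h, 755, 808 and 762 at 8 h, 654, 637 and 653 at 10 h and 793, 759 and 666 at 12 h. This was a rise of 1.94-fold by 4 h (1.58-fold without the low larval array) and a fall of 1.77-fold by 10 h, both without overlap. Sec13 also has a place in the nuclear pore, so its level is not that of COPII alone. Sec24AB and Sec31 were 1.73 and 1.78-fold higher at 4 h than at -18 h, but their falls from 4 to 10 h, 1.33 and 1.42-fold, were under the 1.5-fold limit. Without the low larval array the rises were 1.52 and 1.44-fold, and that of Sec31 was no longer called.

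Sec16 was the exception of the COPII group. It read 221, 295 and 247 at -18 h, 268, 225 and 221 at -4 h, 217, 223 and 214 at 0 h, 218, 231 and 212 at 2 h and 241, 245 and 251 at 4 h, and 257, 224 and 238 at 6 h, 218, 203 and 215 at 8 h, 207, 199.7 and 211 at 10 h and 196, 198 and 263 at 12 h. The Sec16 arrays lay between 196 and 295 throughout, with a range of stage means of 1.23-fold (adjusted p = 0.184). A dimmer Sec16 probe set fell 1.56-fold from -18 to 4 h (adjusted p = 0.0306) with overlapping arrays, near the floor at 71.3 ± 2.36 (SD, n = 3) at 4 h.

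The COPI coat was measured by 5 of its subunits, alphaCOP, betaCOP, deltaCOP, epsilonCOP and gammaCOP, and all but epsilonCOP were called over the stages. betaCOP, a subunit of the inner part of the coat, read 742, 357 and 634 at -18 h, 522, 985 and 858 at -4 h, 1049.6, 1029 and 872 at 0 h, 1171, 1006 and 1188 at 2 h and 1488, 1402 and 1208 at 4 h, then 1226, 845 and 1201 at 6 h, 1064, 1017 and 998 at 8 h, 707, 716 and 679.6 at 10 h and 816, 711 and 601 at 12 h. Its 4 h arrays lay above all others but 1 array at 6 h. alphaCOP, of the outer part, read 368, 239 and 290.2 at -18 h, 236, 328 and 339 at -4 h, 461, 396 and 374 at 0 h, 514, 399 and 536 at 2 h and 606, 425 and 485 at 4 h, then 488, 255 and 373 at 6 h, 376, 288 and 316 at 8 h, 244, 198 and 180.4 at 10 h and 329, 206 and 243 at 12 h. The 2 genes differed in which side of the peak was steeper, betaCOP being 2.47-fold up and 1.94-fold down and alphaCOP 1.70-fold up and 2.43-fold down, a difference that was not tested. Their rises were 1.98 and 1.53-fold without the low larval array.

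epsilonCOP, which joins alphaCOP in the coat, read 672, 268 and 589.5 at -18 h, 433, 697 and 747 at -4 h, 678, 685 and 787 at 0 h, 803, 668 and 743 at 2 h and 823, 789 and 729.6 at 4 h, then 530.4, 618 and 690.2 at 6 h, 766, 703 and 651 at 8 h, 647, 563 and 616 at 10 h and 619, 589.5 and 503 at 12 h. Its 1.65-fold rise to 4 h passed in that comparison (adjusted p = 0.0133) but not without -18 h replicate 2, when it was 1.24-fold, and the F-test over the stages gave an adjusted p of 0.168. It lies 3 genes away from Sec61alpha in the genome.

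The 8 remaining genes act at other steps. Sec3, Sec5, Sec8, Sec10 and Sec15 belong to the exocyst, which tethers vesicles at the plasma membrane, Sec20 and Sec22 are SNAREs of traffic between the endoplasmic reticulum and the Golgi, and Sec71 is an exchange factor for Arf. Of the 7 tested, 4 were called over the stages, a share near the 49.5% of all probe sets, namely Sec8, Sec10, Sec20 and Sec22. Sec8 read 361, 209 and 370.2 at -18 h, 290.1, 483 and 411 at -4 h, 583, 508 and 509 at 0 h, 566, 511 and 598 at 2 h and 706, 591 and 638 at 4 h, and 636, 451 and 649 at 6 h, 605, 528 and 544 at 8 h, 556, 451 and 466 at 10 h and 586, 519.7 and 454 at 12 h. It was 2.12-fold higher by 4 h than at -18 h (adjusted p = 9.41e-05, 1.76-fold without the low larval array), and its 1.32-fold fall by 10 h did not pass the 1.5-fold limit.

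Sec22 read 566, 340.5 and 552 at -18 h, 439, 639 and 539.6 at -4 h, 675, 690.4 and 647 at 0 h, 824, 698 and 791 at 2 h and 1012, 982 and 983 at 4 h, and 1055, 638 and 909 at 6 h, 789, 671 and 648 at 8 h, 606, 591 and 631 at 10 h and 632, 443 and 521 at 12 h. It was 2.09-fold up at 4 h (1.77-fold without the low larval array) and 1.63-fold down from there at 10 h (adjusted p = 0.0076), the course of the core genes. Sec20 went the other way late, from 149, 176 and 168 at 6 h to 231, 248 and 265 at 10 h, a rise of 1.51-fold without overlap (adjusted p = 3.36e-05) that fell under the limit without 6 h replicate 1 or 10 h replicate 3. Sec5 read 376, 471 and 408 at -18 h, 538, 429.6 and 435 at -4 h, 445, 448 and 457 at 0 h, 454, 444 and 443 at 2 h and 469, 455 and 496 at 4 h, and 476, 406 and 472 at 6 h, 473, 398 and 422 at 8 h, 433, 406 and 442 at 10 h and 448, 441 and 431 at 12 h. The Sec5 arrays lay between 376 and 538, and the range of stage means was 1.14-fold (adjusted p = 0.701). Sec3 read between 23 and 54 throughout, under the floor.

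The windows of the time course were then compared one by one. In the last larval hours, from -18 to -4 h, when the hormone 20-hydroxyecdysone (20E) climbs towards the pulse that triggers pupariation, 6 genes rose and none fell, against 9.86% of all probe sets higher. They were Cnx99A, Srp9, Srp19, Sec61beta, Sec61gamma and Sec61alpha, with folds from 1.54 for Srp19 to 2.09 for Cnx99A, and adjusted p values up to 0.0389. The count turned on single arrays, being 1 of 37 (Cnx99A) when -18 h replicate 2 was dropped, against 8.22% of all probe sets higher. It was 15 on dropping -18 h replicate 1. It was 3 on dropping -4 h replicate 3 and 12 on dropping -4 h replicate 1. Apart from -18 h replicate 2, fits that drop an array are given without the share of all probe sets, here and below. At an unadjusted p under 0.05, with the low larval array included, 18 of the 37 genes differed. No share of all probe sets is given at that limit, here or for the windows below, so such counts are not read as a result.

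From -4 to 0 h no gene was called, against 7.98% of all probe sets, and 6 genes had an unadjusted p under 0.05. The median change was 0.25 on the log2 scale, with 31 of 37 genes higher. Leaving out -4 h replicate 2 or -4 h replicate 3 gave 2 calls each. Across the whole larval window, from -18 to 0 h, 21 genes rose and none fell, against 18.9% of all probe sets higher, and in 30 genes all 3 arrays at 0 h lay above all 3 at -18 h, as in 28.6% of all probe sets (31 genes and 35.2% without the low larval array). The lowest adjusted p values belonged to Sec24AB (1.76-fold, 2.44e-05), Cnx99A (1.98-fold, 4.77e-05), Srp19 (1.97-fold), Sec61beta (2.04-fold), Spase22-23 (1.54-fold) and Srp9 (1.82-fold). Without -18 h replicate 2 the count was 8, against 16.1% of all probe sets higher, and the median change went from 0.62 to 0.43. In that array the members stood lower than the rest of the genome, the mean of the other 2 arrays of the stage exceeding it by more than 1.5-fold in 51.4% of the 37 genes and in 19.8% of all probe sets. The 8 that were still called were Sec24AB (1.54-fold), Sec61beta (1.55-fold), Srp19 (1.64-fold), Srp54k, Srp9 (1.54-fold), OstDelta, Cnx99A (1.80-fold) and Sec10, and Spase22-23 was at 1.35-fold.

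By stage means the median gene rose further after pupariation, but few genes passed the test there. The comparisons that end or start at 4 h were chosen after the profiles had been seen. Between 0 and 4 h the median change was 0.29, with 33 of 37 genes higher, and 2 genes passed, TRAM (1.51-fold, adjusted p = 0.00523) and Srp68 (1.63-fold, adjusted p = 0.0708), against 3.1% of all probe sets higher. Dropping any 1 of the 6 arrays left at most 1 call, with 0 for replicate 3 at 0 h and replicates 1 and 2 at 4 h, and 1 for each of the others. Over the longer span from -18 to 4 h, 30 of 37 genes rose and none fell, against 20% of all probe sets higher, and the arrays of 32 genes did not overlap, as in 29.9% of all probe sets. Cnx99A (2.83-fold, adjusted p = 1.52e-07) and TRAM (2.30-fold, adjusted p = 3.58e-07) had the lowest adjusted p values, followed by Tango1, Sec61beta, Sec63 and Srp19. Without -18 h replicate 2, 24 genes were called, against 17.5% of all probe sets higher, with a median change of 0.66 in place of 0.91, and Cnx99A was 2.57-fold higher. The 6 calls lost were epsilonCOP, Sec31, Srp14, SrpRalpha, Spase12 and Sec10.

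By role, every COPI gene (5 of 5), every translocon gene (5 of 5), every gene of the signal recognition particle and its receptor (7 of 7) and OstDelta were called higher at 4 h than at -18 h, SrpRalpha by its brighter probe set only. So were 5 of 6 COPII genes, 2 of 3 signal peptidase genes, 2 of 3 folding and retrieval genes and 3 of 7 of the exocyst and other genes. The median rise was 1.20 on the log2 scale in the translocon, 1.15 in folding and retrieval and 0.995 in the particle and its receptor. It was 0.87 in COPII, 0.76 in COPI, 0.73 in signal peptidase and 0.37 in the exocyst and other genes. Without the low larval array the calls were 5 of 5 in the translocon, 5 of 7 in the particle and its receptor, 4 of 5 in COPI, 4 of 6 in COPII, 1 of 3 in signal peptidase, 2 of 3 in folding and retrieval and 2 of 7 in the exocyst and other genes. The median rises were then 0.94 in the translocon, 0.79 in folding and retrieval and 0.76 in the particle and its receptor. They were 0.63 in COPII, 0.81 in COPI, 0.53 in signal peptidase and 0.37 in the exocyst and other genes. Of all probe sets 20% were called higher with the low larval array and 17.5% without it. The role groups hold few genes and were not tested against these shares or against each other.

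**Figure D4:**
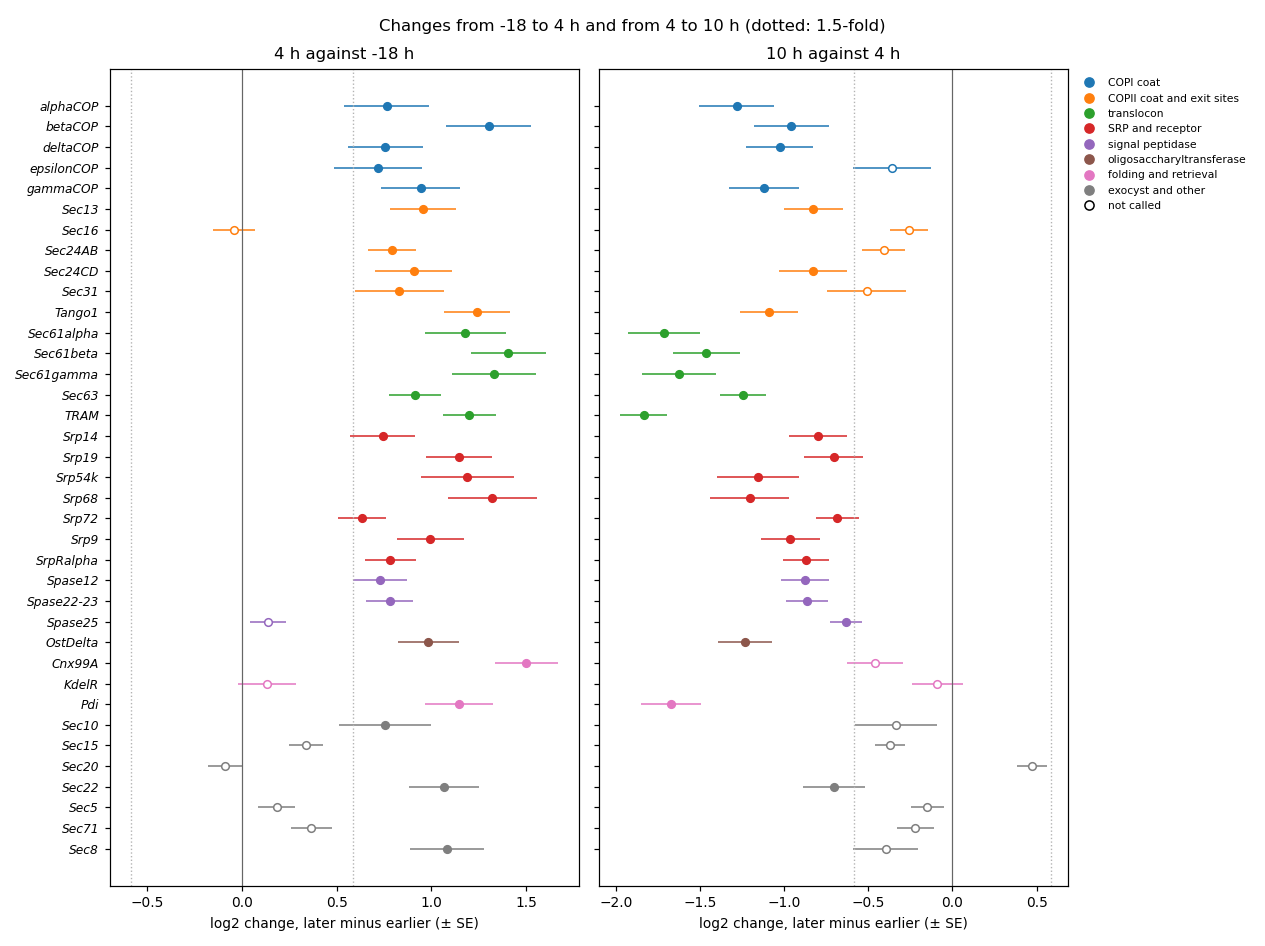
Log2 change with its standard error for each of the 37 tested genes, from -18 to 4 h (left) and from 4 to 10 h (right), with filled symbols for called genes, colours for roles and dotted lines at 1.5-fold. On the left 30 genes are called higher and on the right 25 are called lower, and the 4 h arrays enter both panels.

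From 0 to 6 h no gene was called (11.1% of all probe sets), 4 having an unadjusted p under 0.05, and 20 of 37 genes were higher. The peak at 4 h lies inside this window. The count was 1 without 6 h replicate 1 and 1 without 6 h replicate 2. Between 6 and 8 h Pdi alone fell, against 1.55% of all probe sets lower, the median change being -0.17, and without 6 h replicate 2 there were 2 calls.

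The step from 8 to 10 h, when 20E rises again in the prepupal pulse, brought 6 genes down and none up, against 3.38% of all probe sets lower. TRAM fell 2.08-fold (adjusted p = 1.09e-05), Sec61alpha 2.16-fold, Sec61gamma 1.96-fold, Sec61beta 1.96-fold, SrpRalpha 1.58-fold and alphaCOP 1.58-fold (adjusted p = 0.0881). Thus 4 of the 6 were of the translocon, and these 4 kept their calls under every alternative run. The call of alphaCOP was lost under 6 of 17 alternatives, among them the fits without any 1 of the 8 h arrays, and the dimmer SrpRalpha probe set went up by 0.25 on the log2 scale, so that the direction of that gene is not settled here either. The arrays of the 6 genes did not overlap between the stages. The median change over the 37 genes was -0.38, and 35 of them were lower.

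Measured from 6 to 10 h, 19 genes fell, against 4.67% of all probe sets lower, and Sec20 rose, against 4.78% higher. TRAM (2.66-fold, adjusted p = 5.45e-08), Sec61alpha (2.98-fold, 7.53e-06), Pdi (2.40-fold, 1.3e-05), SrpRalpha (1.89-fold), Sec63 (1.90-fold) and Sec61beta (2.49-fold) led the falls. The dimmer SrpRalpha probe set changed by 0.14 in the other direction on the log2 scale (adjusted p = 0.826). All 5 translocon genes, 5 of 7 of the signal recognition particle and receptor, 4 of 5 of COPI and 3 of 6 of COPII were among the 19. The total of 20 calls was 11 without 6 h replicate 1 and 13 without 6 h replicate 3.

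From the 4 h peak to 10 h, 25 of the 37 genes fell and none rose, against 8.05% of all probe sets lower, SrpRalpha being counted by its brighter probe set. In 35 genes all 3 arrays at 10 h lay below all 3 at 4 h, as in 27% of all probe sets. TRAM fell by 1.83 ± 0.14 on the log2 scale, Pdi by 1.67 ± 0.18, Sec63 by 1.25 ± 0.14, Sec61alpha by 1.71 ± 0.21, OstDelta by 1.23 ± 0.16 and Sec61beta by 1.46 ± 0.20 (SE, n = 3 a stage), with adjusted p values from 6e-10 to 5.92e-06. The count was 25 in each of the 6 fits that left out 1 array. The 12 genes that were not called were epsilonCOP, Sec16, Sec24AB, Sec31, Cnx99A, KdelR, Sec5, Sec8, Sec10, Sec15, Sec20 and Sec71. The rise to 4 h and the fall from it share the 4 h arrays, so their counts are not independent of each other.

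From 10 to 12 h no gene was called, against 4.88% of all probe sets, 2 having an unadjusted p under 0.05, and 18 of 37 genes were higher, with a median change of -0.00. The low level reached at 10 h was thus still found at 12 h, when head eversion is under way.

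Likeness of shape was described by Pearson's r over the 9 stage means between each gene and the median profile of the core genes (all roles but the exocyst and other group), each core gene being left out of the median it was compared with. Of the 37 genes, 25 had an r above 0.8, as did 4.73% of all 12854 probe sets. Among the COPI genes r ran from 0.812 in epsilonCOP to 0.973 in gammaCOP, and in the translocon from 0.937 in Sec61alpha to 0.984 in Sec61beta, whereas Sec16 had 0.255. The points share their 27 arrays, the low larval array among them. As the profile was drawn from the members, their share and that of all probe sets are not like for like. They are not read as a test.

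Other genes of the secretory route, listed by role and outside the symbol rule, moved the same way in part. Of 62 listed, 42 could be tested, and 33 of them were called over the stages, against 49.5% of all probe sets. From -18 to 4 h 29 rose and none fell, against 20% of all probe sets higher, and from 4 to 10 h 27 fell and none rose, against 8.05% lower. Without the low larval array 26 rose from -18 to 4 h and 1 fell, PEK, a kinase that slows translation when unfolded proteins build up (1.66-fold, adjusted p = 0.00114). The counts by group below are read against these shares of all probe sets. CrebA and Xbp1, transcription factors that drive secretory genes in Drosophila, were not analysed here, as no probe set names them singly.

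Lumenal folding genes fell from 4 to 10 h in 8 of 9 cases. Hsc70-3, the fly BiP, was 1.75-fold higher at 4 h than at -18 h (adjusted p = 0.000335, 2.02-fold without the low larval array) and 1.94-fold lower at 10 h than at 4 h (adjusted p = 0.000126), by a probe set that may also detect related chaperones. In the other comparisons Hsc70-3 was not called, its log2 changes being 0.14 from -18 to -4 h, 0.11 from -4 to 0 h, 0.25 from -18 to 0 h, 0.56 from 0 to 4 h, 0.09 from 0 to 6 h, -0.45 from 6 to 8 h, -0.04 from 8 to 10 h, -0.48 from 6 to 10 h and 0.02 from 10 to 12 h. Ero1L, the oxidase that recharges protein disulfide isomerase, peaked at 0 h, 4.38-fold above -4 h (adjusted p = 1.29e-08), and had dropped 2.72-fold by 4 h, the stage at which Pdi was highest. prtp, a thioredoxin-domain protein of the lumen, was 4.74-fold above its -18 h level at 0 h (3.53-fold without the low larval array), and Der-1, of the degradation channel, rose 1.65-fold to 4 h and fell 1.80-fold to 10 h. The rise of Der-1 was 1.45-fold without the low larval array and no longer called.

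All 5 tested glycosylation and translocon partner genes rose from -18 to 4 h and fell from 4 to 10 h. The catalytic oligosaccharyltransferase subunits Stt3A and Stt3B rose 1.95 and 1.97-fold and fell 1.88 and 1.84-fold, and Dad1, of the same enzyme, rose 2.19-fold and fell 2.01-fold, next to 1.98 and 2.35-fold for OstDelta. Trp1, the fly Sec62, which was singled out after its values were seen, rose 7.10-fold (log2 2.83 ± 0.51 SE, adjusted p = 0.000103) and fell 4.97-fold. One of its arrays at -18 h, the low larval array, lay under the floor, at 45.1 against 329 and 227 in the others, and without it the rise was 4.29-fold (adjusted p = 0.000869). The rises of Stt3A, Stt3B and Dad1 were 1.88, 1.69 and 1.85-fold without that array.

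Among the cargo receptors, 6 of 7 rose and 6 of 7 fell. The p24 proteins eca and loj were 2.33 and 2.53-fold higher at 4 h than at -18 h and 2.19 and 2.49-fold lower at 10 h than at 4 h, while opm, also of the p24 family, passed in neither comparison. The rises of eca and loj were 1.95 and 1.88-fold without the low larval array. At 10 h the eca arrays were scattered, at 1597, 2218 and 800, though all lay below those at 4 h. Of the tethers, SNAREs and Rabs, 3 of 10 rose, near the 20% of all probe sets, and 5 of 10 fell, against 8.05%, among them Slh, the fly Sly1 (1.73-fold up, 1.54-fold without that array, 1.71-fold down), and Membrin, a Golgi SNARE (2.32-fold down), whereas Gos28 had a range of 1.39-fold over the stages and was not called.

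The clathrin and AP-1 genes, which coat vesicles leaving the Golgi, had mostly risen by the late larva. From -18 to -4 h 4 of 5 were higher, against 9.86% of all probe sets, Chc by 2.07-fold and Clc by 1.99-fold. Without the low larval array 3 were called, with 1.76-fold for Chc and 1.66-fold for Clc. At 10 h their median still stood 0.70 above -18 h on the log2 scale, next to 0.03 for the members (0.43 and -0.18 without that array). The difference between the lists was not tested. AP-1-2beta, an adaptor subunit, was the one named gene of the 3 to fall from 4 to 10 h, by 1.74-fold. Exo84, of the exocyst, rose 1.57-fold to 4 h (also called without it), and Exo70 was not called (range 1.46-fold).

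The regulators that could be tested, Atf6, Ire1, PEK and crc, gave 2 calls over the stages, a share like the 49.5% of all probe sets. Atf6, a sensor of unfolded proteins, was 2.91-fold higher at 0 h than at -18 h (adjusted p = 0.000202, 2.12-fold without the low larval array), and crc, the fly ATF4, 1.76-fold higher at 4 h than at -18 h (adjusted p = 7.61e-05), a call that was lost without that array, at 1.47-fold. Ire1, the kinase that splices Xbp1 RNA, had a range of 1.27-fold (adjusted p = 0.14).

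**Figure D5:**
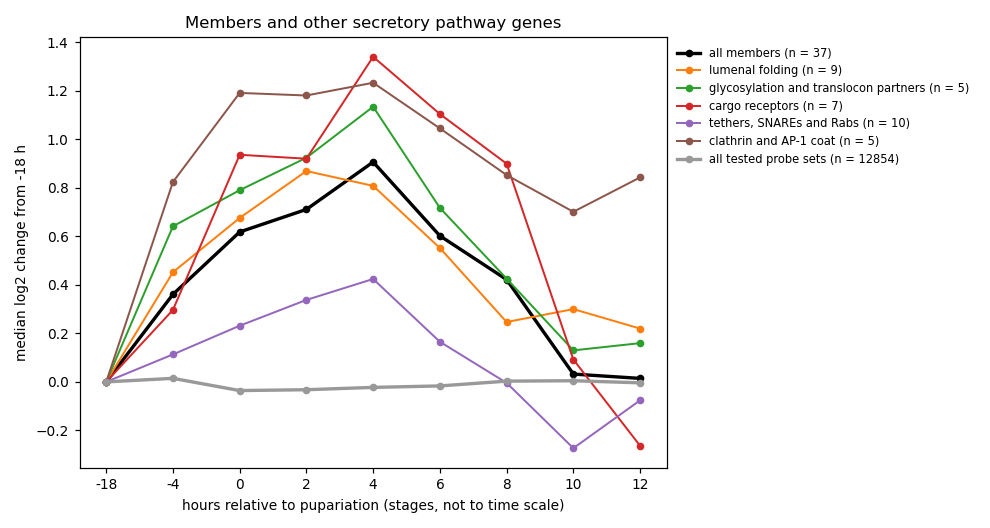
Median log2 change from -18 h for the 37 members (black), 5 other groups of secretory genes (colours) and all 12854 tested probe sets (grey), at each stage. The members reach 0.91 at 4 h and 0.03 at 10 h, the clathrin and AP-1 genes reach 1.23 and 0.70, all with -18 h replicate 2 included, and the grey line stays near 0.

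Markers of secreting and larval tissues also changed over these hours. The summed intensity of 7 of 9 listed salivary glue genes went from 69045 to 77326 in the arrays at -18 h to 26600 to 35927 at 0 h and 3473.3 to 4419.8 at 4 h. It stood between 2390 and 2688.2 at 10 h, so that the glue RNA was already low when the secretory machinery genes peaked. At 2 h the glue sum ran from 3275.2 to 37618, so the arrays of that stage differed in it. Midgut proteases (8 of 10 listed) went from between 76612 and 83799 at -18 h to between 2226.2 and 2414.3 at 4 h, and muscle genes (4 of 8) from between 28612 and 30268 to between 1396.7 and 1587.5.

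The summed intensity of fat body genes (3 of 6 listed) lay between 43432 and 53974 throughout. Single values of these genes reached 20590.0, where the brightest value of a whole array was as low as 18269.9, and whether such bright probe sets still follow the RNA level was not tested. Prepupal cuticle genes (5 of 7) rose from between 3197.7 and 3277.8 at 4 h to between 24417 and 27827 at 8 h and between 46759 and 51581 at 10 h. Hemocyte genes (6 of 6) lay between 2915.3 and 9175.6. No listed marker was under the floor in all arrays of a stage except Jon99Fi, a midgut protease, at 8 h. The part of these tissues in the changes of the secretory genes was not tested.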

How the data were processed

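Deposited values were used as they stood: the authors normalised the arrays and computed 1 linear intensity for each probe set and array with dChip, whose use of mismatch probes the study's methods leave unstated. Genes were named from the platform's gene numbers, updated through the RefSeq gene table, which gave 12443 probe sets with 1 symbol, 327 with several and 1196 with none, and 12394 of the first were matched by gene number. No sequence was used, and gene coordinates served only to find members that lie near each other. Intensities were set to a floor of 60.26, the 10th percentile of all values, and log2 transformed. A probe set was tested where all 3 arrays of at least 1 stage lay above the floor, which left out 1112.

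The study tested stages with SAM, which was not run here. In its place limma 3.58.1 in R 4.3.3 modelled stage alone over the 27 arrays (18 residual degrees of freedom), with Benjamini-Hochberg adjustment over 12854 probe sets, an adjusted p under 0.1 and a limit of 1.5-fold. The step was tested on simulated data. Members, lists and tests were chosen with earlier results of these data known. The comparisons from 0 to 2 h, 2 to 4 h and 4 to 6 h were added after the profiles were seen. So were those from 0 to 4 h, -18 to 4 h and 4 to 10 h. Values in every array are given for the genes with the 2 largest ranges in each role and, in roles of 3 or more, the smallest, and each comparison names up to 6 called genes of lowest adjusted p in each direction. Of the other secretory genes, Hsc70-3 and up to 3 of lowest F-test p in each group are named. Alternatives were quantile or median scaling, a higher floor, log2 of the value plus 16, no or a stricter filter, array weights, the replicate number as a block, a fit to the compared stages alone, other probe sets and leaving out arrays. The number of arrays limits the precision, and dim probe sets are limited by the floor as well.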

Additional observations from a re-analysis of the deposited data

How the results depend on the processing

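Counts of called genes depended most on the larval arrays. The share of all probe sets under each changed setting is not given here. A change in the members' counts can thus not be told from one in all probe sets. From -18 to -4 h the count of 6 became 1 in a fit to the compared stages alone, 2 after quantile normalisation, 2 without both -18 h replicate 2 and -4 h replicate 1, and 1 to 15 when single arrays were left out. From -18 to 0 h the 21 calls became 13 after quantile normalisation, 8 without both of those arrays, and 8 to 25 when single arrays were left out. From 6 to 8 h the 1 call became 4 after quantile normalisation and 2 with array weights (1 to 2 with an array left out), and from 0 to 6 h the 0 calls became 1 under each of these settings (0 to 1 with an array left out). Leaving out 1 array at a time gave 0 to 2 calls from -4 to 0 h, 0 to 1 from 0 to 4 h, 11 to 23 from 6 to 10 h, 24 to 30 from -18 to 4 h, and 25 each time from 4 to 10 h. Genes that were called over the stages and highest at 4 h numbered 22 to 28 over the alternatives. The dimmer SrpRalpha probe set reversed 4 values, giving 0.25 from 8 to 10 h, 0.14 from 6 to 10 h, 0.32 from 4 to 10 h and -0.79 from -18 to 4 h on the log2 scale, and the cause was not tested. Of the single calls from 4 to 10 h, 22 of 25 held under every alternative run, as did 22 of 30 from -18 to 4 h, 10 of 20 from 6 to 10 h, 6 of 21 from -18 to 0 h and 1 of 6 from -18 to -4 h. Same-numbered samples had a median correlation of deviations of 0.168 (57 of 108 pairs over 0.1, from -0.824 to 0.631). For samples of different numbers it was -0.06 (61 of 216 pairs over 0.1, from -0.737 to 0.812). Deviations were taken from stage means and cancel within a stage, so these medians are not independent of each other. As not every pair passed 0.1, the numbers were not taken to pair the samples, and 14 of 27 arrays correlated best with their own number. With the replicate number as a block there was 1 call from -4 to 0 h in place of 0 and 7 from 8 to 10 h in place of 6, and the other counts stayed the same. Dim genes such as Srp54k and Sec3 were limited by their signal over the floor.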
